A study of Homo sapiens with 15 samples.

Results

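Interferon-stimulated genes were described in IMR90, a widely used line of human lung fibroblasts of fetal origin. The 52 genes are a list of well-known targets of interferon signalling, matched by symbol to rows of a count table of 57736 genes. Of these, 47 had enough counts to be tested and 5 did not (OAS1, CXCL9, GBP5, RSAD2 and BST2). The 15 RNA-seq libraries formed 5 groups of 3. Senescent cells carried shTXNRD1, a short hairpin RNA against TXNRD1, and were set against senescent cells labelled control. Senescent cells treated with TRi-1, a small molecule that blocks TXNRD1, were set against senescent cells given its vehicle DMSO. The third pair was senescent control against growing control. TXNRD1 encodes thioredoxin reductase of the cytosol, the enzyme that reduces thioredoxin, and the series title ties it to innate immune responses in senescence. The labels name 1 hairpin, and they do not give how senescence was induced, what the control for the hairpin was, the dose or time of TRi-1, or whether replicates were separate cultures. Each p-value here rests on the spread among these libraries alone, which may be technical.

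Type I interferons bind the IFNAR receptor, which activates JAK1 and TYK2. These kinases phosphorylate STAT proteins, among them STAT2, which joins IRF9 in the complex ISGF3 that binds a promoter element called the ISRE. Interferon gamma instead drives STAT dimers to the GAS element, and IRF1, induced by STAT proteins and NF-kB, also binds ISRE-like sites. The products of the genes block viral translation, degrade RNA, tag proteins with ISG15 or attract T cells, and senescent fibroblasts are known to express some of them late after damage.

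The promoters of 6 members that the results turn on are shown here, to show which elements each one holds. Each runs from 250 bases before to 50 bases after the annotated gene start, 5′ to 3′ on the gene's own strand, from RefSeq on GRCh38.p14. Capitals mark matches to the ISRE core (GAAA, any 2 bases, GAAA), the GAS core (TTC, any 3 bases, GAA) or the NF-kB consensus, searched on both strands. CXCL10 (chr4:76023448-76023747, minus strand) had 1 ISRE match and 2 NF-kB matches. CXCL11 (chr4:76036021-76036320, minus strand) had 1 NF-kB match and 2 GAS matches. IRF1 (chr5:132490724-132491023, minus strand) had 1 GAS match and 1 NF-kB match. GBP1 (chr1:89065159-89065458, minus strand) had 1 ISRE match. IFIT1 (chr10:89392373-89392672, plus strand) and IFI44L (chr1:78620198-78620497, plus strand) each had 2 ISRE matches.
CXCL10: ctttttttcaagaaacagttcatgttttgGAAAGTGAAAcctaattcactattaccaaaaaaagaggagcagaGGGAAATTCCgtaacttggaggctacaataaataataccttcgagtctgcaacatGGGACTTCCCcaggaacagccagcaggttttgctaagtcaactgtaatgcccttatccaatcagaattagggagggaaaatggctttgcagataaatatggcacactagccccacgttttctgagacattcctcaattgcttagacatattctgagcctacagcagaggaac
CXCL11: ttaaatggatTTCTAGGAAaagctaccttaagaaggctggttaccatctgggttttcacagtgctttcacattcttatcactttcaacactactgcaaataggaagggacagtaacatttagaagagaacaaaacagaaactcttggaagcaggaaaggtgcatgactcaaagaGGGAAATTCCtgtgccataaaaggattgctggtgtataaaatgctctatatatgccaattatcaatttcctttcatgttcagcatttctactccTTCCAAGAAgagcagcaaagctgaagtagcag
IRF1: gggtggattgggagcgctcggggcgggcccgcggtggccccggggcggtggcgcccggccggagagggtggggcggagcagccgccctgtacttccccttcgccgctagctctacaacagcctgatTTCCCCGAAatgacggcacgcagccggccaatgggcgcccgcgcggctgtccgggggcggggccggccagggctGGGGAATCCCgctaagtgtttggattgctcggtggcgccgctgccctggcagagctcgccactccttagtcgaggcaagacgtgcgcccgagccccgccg
GBP1: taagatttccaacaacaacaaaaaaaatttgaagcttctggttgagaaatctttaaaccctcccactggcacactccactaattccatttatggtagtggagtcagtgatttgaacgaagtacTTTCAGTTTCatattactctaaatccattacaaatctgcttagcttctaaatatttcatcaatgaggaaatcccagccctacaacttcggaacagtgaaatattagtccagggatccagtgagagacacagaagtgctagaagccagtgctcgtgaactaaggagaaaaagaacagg
IFIT1: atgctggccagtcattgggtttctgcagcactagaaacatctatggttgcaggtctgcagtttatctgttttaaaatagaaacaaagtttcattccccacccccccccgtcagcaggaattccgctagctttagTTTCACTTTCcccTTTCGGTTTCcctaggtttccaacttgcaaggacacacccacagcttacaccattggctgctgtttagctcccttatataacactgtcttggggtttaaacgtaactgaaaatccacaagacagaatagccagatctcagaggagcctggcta
IFI44L: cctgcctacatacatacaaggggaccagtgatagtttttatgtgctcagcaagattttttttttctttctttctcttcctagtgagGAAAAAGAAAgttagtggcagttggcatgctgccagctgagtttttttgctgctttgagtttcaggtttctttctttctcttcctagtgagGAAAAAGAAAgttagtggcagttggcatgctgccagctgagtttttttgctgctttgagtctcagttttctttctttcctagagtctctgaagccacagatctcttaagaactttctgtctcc

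Across the list, 42 of 52 members had a promoter entry. An ISRE match stood in 30 of the 42 (71.4%), against 4.38% of 27305 genes with such a window. GAS matches stood in 14 members (33.3%), against 9.38% of all genes, and NF-kB matches in 10 members (23.8%), against 13.3%. The NF-kB and GAS searches can overlap an ISRE or each other. A match describes letters in a window and is not evidence of binding.

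Libraries held 18033076 to 28909046 counts (median 21156213). The hairpin target TXNRD1 had 21.0, 21.6 and 25.3 CPM (a gene's share of the library's counts after TMM scaling, in the usual edgeR unit) in shTXNRD1 cells, against 506, 511 and 528 CPM in senescent control cells, a change of -4.51 ± 0.08 on the log2 scale (SE). It had 430, 420 and 443 CPM with TRi-1, against 430, 399 and 395 CPM with DMSO, a change of 0.08 ± 0.07 that was not called. All 9 fibroblast markers were detected, with summed levels of 12050 to 15525 CPM with shTXNRD1, 16742 to 19341 CPM in senescent control cells, 16277 to 21433 CPM in growing cells, 11483 to 12227 CPM with TRi-1 and 15259 to 17778 CPM with DMSO. The sums did not overlap within either inhibition comparison: 2 of the 9 were higher and 6 lower with the hairpin, and 1 higher and 6 lower with TRi-1. Over all genes tested, 25.8% were higher and 24.8% lower with the hairpin, and 7.64% and 12.2% with TRi-1. Among 7 leukocyte markers, CD3E was at 0 in every library, and the summed level of the list followed CD68, a lysosomal protein that fibroblasts also make. That sum was 19.1 to 38.8 CPM with shTXNRD1, 72.3 to 80.6 CPM in senescent control cells, 15.6 to 26.0 CPM in growing cells, 91.5 to 93.3 CPM with TRi-1 and 56.6 to 73.9 CPM with DMSO. Of 4 markers of plasmacytoid dendritic cells, the main makers of type I interferon, LILRA4 and CLEC4C were at 0 throughout and IL3RA had 1 count in 1 library. The list's sum followed TCF4, a transcription factor of many cell types, which had 36.2 to 39.7 CPM with shTXNRD1, 54.3 to 61.3 CPM in senescent control cells, 43.2 to 50.4 CPM in growing cells, 38.2 to 41.6 CPM with TRi-1 and 77.5 to 81.7 CPM with DMSO. The endothelial sum (4 markers found) was 105 to 133 CPM with shTXNRD1, 158 to 171 CPM in senescent control cells, 109 to 134 CPM in growing cells, 51.3 to 54.1 CPM with TRi-1 and 83.1 to 90.0 CPM with DMSO, most of it TEK. KDR, a receptor of VEGF, was at 7.70, 7.96 and 9.07 CPM with shTXNRD1 and under 1 CPM in all other libraries. Of 3 tested endothelial markers, only KDR was called higher with the hairpin. TEK (-0.56 ± 0.09, adjusted p = 0.000122) and VWF (-2.10 ± 0.67, 0.0173) were lower. The epithelial sum (6 markers) was 55.2 to 67.4 CPM with shTXNRD1, 49.8 to 55.4 CPM in senescent control cells, 59.9 to 82.7 CPM in growing cells, 56.4 to 57.1 CPM with TRi-1 and 45.4 to 48.1 CPM with DMSO. Of 4 tested epithelial markers, EPCAM was higher with the hairpin (1.74 ± 0.25, adjusted p = 5.67e-05) and KRT8 lower (-0.71 ± 0.23, 0.0181). The other 2, KRT18 and KRT19, were not called. The part of these markers in the results was not tested. In a bulk library, fewer cells with a transcript and less of it per cell cannot be told apart. The libraries also differed in how levels followed the GC content of transcripts: growing replicate 1, shTXNRD1 replicate 3 and DMSO replicate 1 were low in GC-rich transcripts relative to their own groups. Counts are given with and without these 3 libraries. The changes between groups also followed transcript GC over 15433 genes. The Spearman correlation was 0.28 for senescence, -0.31 for the hairpin, 0.32 for TRi-1 and -0.42 for the hairpin effect minus the TRi-1 effect. Whether this tendency is technical was not tested.

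Members were called in both directions in each comparison below. Under TRi-1 only IRF1 was called higher, and it lost that call in 5 of 6 runs with 1 library left out. Between senescent control and growing cells, 8 of the 47 tested members were higher and 22 lower at an adjusted p under 0.05 (edgeR's quasi-likelihood test, Benjamini-Hochberg over 15994 genes), and 17 were not called. Over all genes tested, 27.4% were called higher and 29.5% lower. With shTXNRD1 against senescent control, 7 members were higher, 25 lower and 15 not called, against 25.8% of all genes higher and 24.8% lower. With TRi-1 against DMSO, 1 was higher, 18 were lower and 28 were not called, against 7.64% of all genes higher and 12.2% lower. The 18 lower members of the TRi-1 comparison were 38.3% of those tested. The median log2 fold change of the members was -0.24 for senescence, -0.63 for the hairpin and -0.36 for TRi-1, where all genes tested had medians of 0.03, -0.01 and 0.01. The lower members were 46.8% of those tested under senescence and 53.2% under the hairpin. Without the 3 low-GC libraries, 10 members were higher and 22 lower with senescence, 9 and 27 with the hairpin, and 1 and 21 with TRi-1. These counts come from a separate fit, so the shares of all genes above do not apply to them. The shares in that fit are not given here, and more of all genes were called higher with TRi-1 in it. The counts are therefore not read as a result about the list. The split of all genes under TRi-1 changed with a correction for transcript GC: 1222 were higher and 1954 lower as fitted, and 3266 higher and 2422 lower after it. The cause of that change was not tested. The senescence and hairpin comparisons share the senescent control libraries, so their values stand side by side only.

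**Figure D1:**
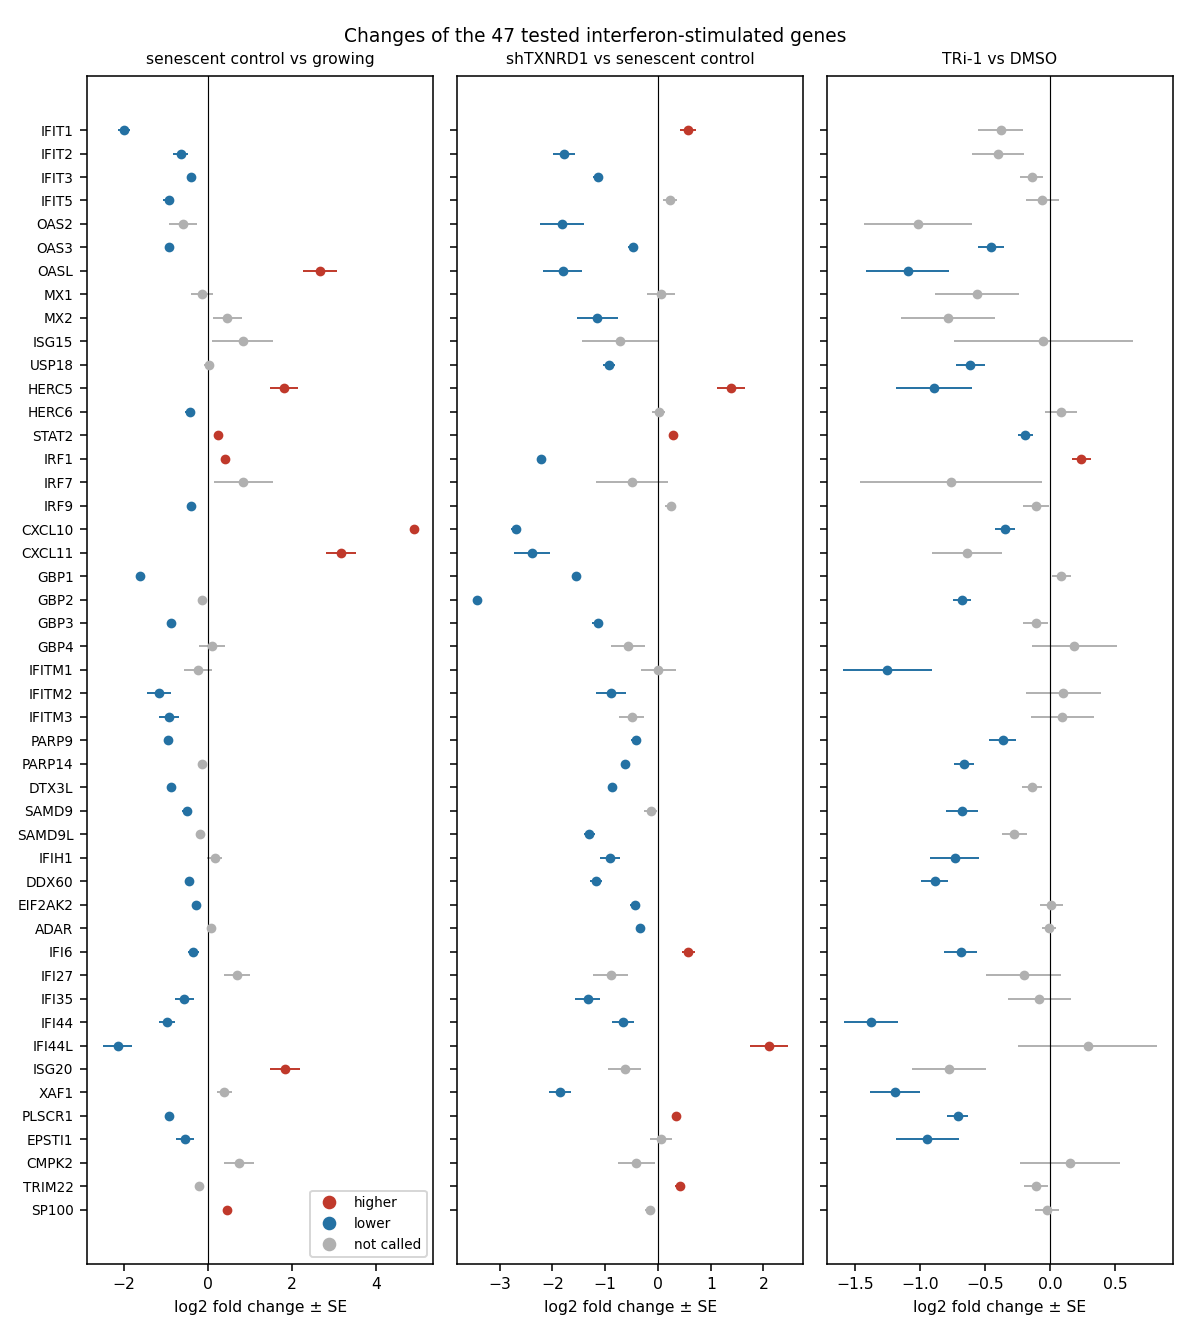
Log2 fold change ± SE (x axis) of the 47 tested members (rows, by role) in senescent control against growing cells, shTXNRD1 against senescent control, and TRi-1 against DMSO; red is called higher, blue called lower and grey not called. Each panel has its own x range. CXCL10 stands far to the right under senescence and GBP2 far to the left under the hairpin.

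The interferons themselves were almost unmeasured. Of 21 interferon ligand genes listed, 18 were at 0 in all 15 libraries, interferon beta (IFNB1) and gamma (IFNG) among them. A count of 0 allows up to 3 counts, which is 0.109 to 0.158 CPM across these libraries; such limits cover counting error only. IFNA5 had 2 counts and IFNK 1 count over all libraries. IFNE, a type I interferon known from epithelia of the reproductive tract, was the only ligand tested. It had 2.95, 1.93 and 3.72 CPM with shTXNRD1, 3.97, 4.84 and 4.30 CPM in senescent control cells and 0.198, 0.164 and 0.329 CPM in growing cells. Every senescent library lay above every growing one. The changes were 4.23 ± 0.27 with senescence (adjusted p = 8.09e-09) and -0.61 ± 0.19 with the hairpin (adjusted p = 0.0164), where the call was lost without shTXNRD1 replicate 2 (0.0678) or senescent control replicate 2 (0.0616). With TRi-1 it had 7.74, 8.27 and 8.07 CPM, against 9.80, 8.70 and 8.22 CPM with DMSO (-0.15 ± 0.18, adjusted p = 0.605).

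Of 6 receptor genes, 3 were higher with senescence and none was lower. With the hairpin 1 was higher and 3 lower. Over all genes tested, 27.4% were higher and 29.5% lower with senescence, and 25.8% and 24.8% with the hairpin. With TRi-1 these shares were 7.64% and 12.2%. IFNAR1, a chain of the type I receptor, changed by 0.37 ± 0.09 with senescence (adjusted p = 0.00312) and -0.29 ± 0.09 with the hairpin (0.0170), the second call being lost without shTXNRD1 replicate 2 (0.0508) or senescent control replicate 3 (0.0559). IFNGR2, a chain of the interferon gamma receptor, changed by -0.62 ± 0.06 with the hairpin (adjusted p = 2.49e-06), while its partner IFNGR1 changed by 0.39 ± 0.09 (0.00162). IFNAR2 was the receptor gene lower with TRi-1 (-0.33 ± 0.09, adjusted p = 0.0151), and IFNLR1, of the lambda receptor, the one higher (0.82 ± 0.27, 0.0431). The IFNAR2 call was lost without TRi-1 replicate 2 (adjusted p = 0.0669) or DMSO replicate 1 (0.0596), and that of IFNLR1 without any 1 of the TRi-1 replicates 1 (0.0747), 2 (0.0929) or 3 (0.135) or DMSO replicates 1 (0.160) or 2 (0.140).

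JAK1, a kinase of every interferon receptor, was lower with the hairpin (-0.41 ± 0.07, adjusted p = 0.000178), as was TYK2 (-0.66 ± 0.22, 0.0225). The TYK2 call was lost without shTXNRD1 replicate 2 (adjusted p = 0.0672) or 3 (0.0930) or senescent control replicate 1 (0.0570) or 2 (0.0804). STAT3, which carries signals of the interleukin 6 family, was lower with senescence (-0.21 ± 0.04, adjusted p = 0.00103) and higher with the hairpin (0.17 ± 0.04, 0.00496). Of 4 genes of JAK-STAT signalling outside the list, 2 were lower with senescence, 2 lower and 1 higher with the hairpin, and 1 higher with TRi-1. The shares over all genes were 29.5% lower with senescence, 24.8% lower and 25.8% higher with the hairpin, and 7.64% higher with TRi-1.

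STAT2 and IRF9, the members that transmit the type I signal, changed by small amounts. STAT2, a subunit of ISGF3, had 195, 209 and 212 CPM with shTXNRD1, 166, 159 and 178 CPM in senescent control cells and 146, 144 and 136 CPM in growing cells. Hairpin libraries were the highest and growing libraries the lowest of these groups, and no libraries overlapped. The changes were 0.24 ± 0.06 with senescence (adjusted p = 0.00252) and 0.29 ± 0.06 with the hairpin (0.000656). After the GC correction the senescence change was 0.07 (adjusted p = 0.126). With TRi-1, STAT2 had 125, 125 and 134 CPM, against 147, 148 and 143 CPM with DMSO (-0.19 ± 0.06, adjusted p = 0.0316). That TRi-1 call was lost whichever of the DMSO replicates 1 (adjusted p = 0.0905), 2 (0.0952) or 3 (0.0579) was left out, and without TRi-1 replicate 1 (0.113) or 2 (0.0981). IRF9, the DNA-binding subunit of ISGF3, had 18.0, 17.5 and 15.5 CPM with shTXNRD1, 15.8, 13.0 and 14.5 CPM in senescent control cells and 18.3, 19.98 and 19.3 CPM in growing cells. It was lower with senescence (-0.41 ± 0.10, adjusted p = 0.00253), and its hairpin change of 0.24 ± 0.10 was not called (0.0574).

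IRF1 had the largest hairpin change of the 4 transcription factors on the list, with 14.2, 14.8 and 13.6 CPM with shTXNRD1, 69.5, 65.8 and 63.7 CPM in senescent control cells and 44.5, 53.3 and 52.5 CPM in growing cells. Hairpin libraries lay below every other library of the series. The change was -2.22 ± 0.08 with the hairpin, a 4.66-fold fall (adjusted p = 3.69e-11), and 0.41 ± 0.07 with senescence (0.000220). TRi-1 moved it slightly in the other direction, to 59.1, 63.1 and 62.9 CPM against 53.3, 51.7 and 51.7 CPM with DMSO (0.24 ± 0.07, adjusted p = 0.0287). It was the only member called higher with TRi-1, and the call was lost when DMSO replicate 1 (adjusted p = 0.0586), 2 (0.0835) or 3 (0.0834) or TRi-1 replicate 2 (0.0947) or 3 (0.0956) was left out. The 2 inhibitions differed by -2.46 ± 0.10 in IRF1 (adjusted p = 9.38e-10). IRF7, the factor that amplifies interferon production, stayed below 1 CPM in all libraries and passed no test.

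The chemokines CXCL10 and CXCL11, which attract T cells through the receptor CXCR3, had the largest rises with senescence among the 47 tested members. CXCL10 had 11.6, 12.1 and 14.1 CPM with shTXNRD1, 82.3, 79.1 and 83.9 CPM in senescent control cells and 2.97, 2.79 and 2.49 CPM in growing cells. The 3 groups were far apart, with hairpin libraries between the other two. The changes were 4.89 ± 0.10 with senescence (adjusted p = 2.26e-14) and -2.70 ± 0.08 with the hairpin, a 6.49-fold fall (1.62e-11). With TRi-1, CXCL10 had 47.04, 44.5 and 43.8 CPM, against 61.2, 56.7 and 54.0 CPM with DMSO (-0.34 ± 0.08, adjusted p = 0.00626). The fall with TRi-1 was 1.27-fold, and the inhibitions differed by -2.36 ± 0.11 (adjusted p = 3.03e-09). CXCL11 had 0.150, 0.263 and 0.694 CPM with shTXNRD1, 1.78, 2.22 and 1.80 CPM in senescent control cells and 0.278, 0.206 and 0.141 CPM in growing cells. Hairpin and growing libraries overlapped, and senescent control libraries lay above both. The changes were 3.16 ± 0.37 with senescence (adjusted p = 4.52e-06) and -2.38 ± 0.34 with the hairpin (4.97e-05), while TRi-1 gave -0.64 ± 0.27 (0.114). CXCL9, the third ligand of this receptor and the one most tied to interferon gamma, had 0 to 2 counts per library.

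**Figure D2:**
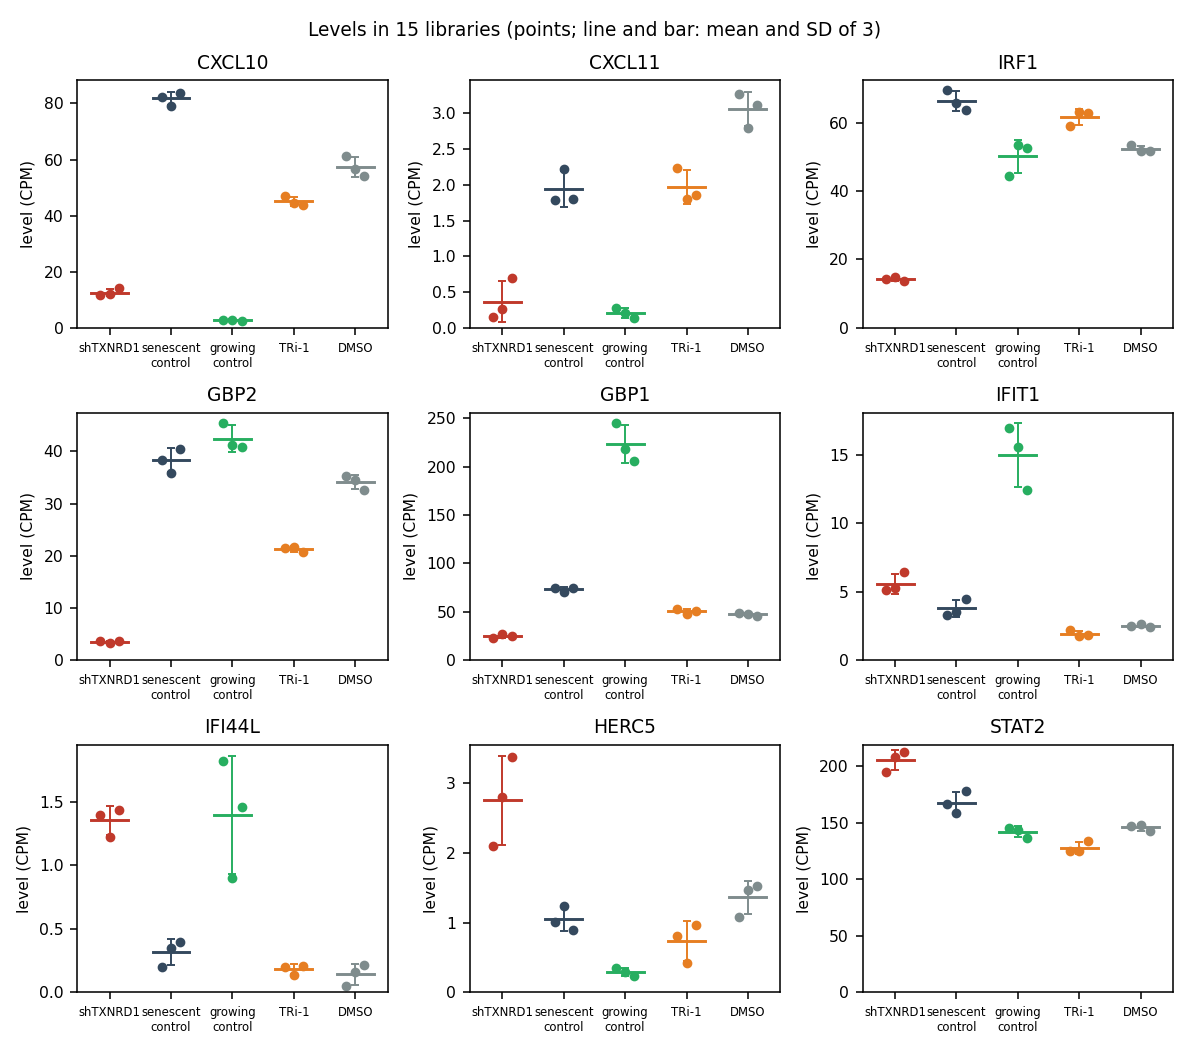
Levels (CPM, y axis from 0) of 9 members in each of the 15 libraries (points), with the mean and SD of 3 libraries (line and bar), in shTXNRD1, senescent control, growing, TRi-1 and DMSO cells. CXCL10 and CXCL11 are high in senescent control cells and low in growing cells, GBP1 and IFIT1 are the reverse, and HERC5 is highest with the hairpin.

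Guanylate-binding proteins, GTPases that act against intracellular pathogens, fell with the hairpin in 3 of 4 tested members. Of all genes tested, 24.8% were lower with the hairpin. GBP2 had 3.70, 3.33 and 3.62 CPM with shTXNRD1, 38.4, 35.9 and 40.5 CPM in senescent control cells and 45.3, 41.1 and 40.9 CPM in growing cells. Its hairpin change of -3.43 ± 0.08 (adjusted p = 1.15e-12) was the largest among the members, a 10.8-fold fall, while senescence gave -0.15 ± 0.07 (0.0700). GBP2 in TRi-1 cells was at 21.5, 21.8 and 20.7 CPM, against 35.3, 34.4 and 32.6 CPM with DMSO (-0.68 ± 0.07, adjusted p = 1.03e-05). The fall was thus present with both inhibitions, and larger with the hairpin by -2.75 ± 0.10 (adjusted p = 4.83e-10). GBP1 had 23.1, 26.95 and 25.4 CPM with shTXNRD1, 74.6, 71.0 and 74.7 CPM in senescent control cells and 245, 219 and 206 CPM in growing cells. It fell with senescence (-1.60 ± 0.07, adjusted p = 1.83e-10) and was lower again with the hairpin (-1.55 ± 0.08, 1.17e-09). TRi-1 left it at 52.4, 47.5 and 51.2 CPM, against 49.1, 47.2 and 45.9 CPM with DMSO (0.09 ± 0.07, adjusted p = 0.451). GBP3 changed like GBP1, by -0.89 ± 0.09 with senescence and -1.15 ± 0.10 with the hairpin. GBP4, at 0.400 to 1.09 CPM over all libraries, was not called in any of these comparisons. GBP5 had 0 to 8 counts per library. GBP1, GBP2 and GBP3 are similar in sequence, and the sources used here do not say how shared reads were assigned.

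The IFIT family, RNA-binding proteins that block translation of foreign RNA, fell with senescence in all 4 members and split with the hairpin. Of all genes tested, 29.5% were lower with senescence, and 25.8% were higher and 24.8% lower with the hairpin. IFIT1 had 5.10, 5.25 and 6.44 CPM with shTXNRD1, 3.28, 3.56 and 4.50 CPM in senescent control cells and 17.0, 15.6 and 12.5 CPM in growing cells. The changes were -1.99 ± 0.15 with senescence (adjusted p = 4.63e-08) and 0.57 ± 0.15 with the hairpin (0.00666), where libraries did not overlap. IFIT2 had 0.800, 0.831 and 1.49 CPM with shTXNRD1, 3.97, 3.26 and 3.45 CPM in senescent control cells and 5.63, 5.06 and 6.11 CPM in growing cells. It fell in both comparisons, by 0.65 and by 1.78 on the log2 scale (adjusted p = 0.00585 and 5.81e-06). IFIT3 had 5.60, 6.21 and 6.64 CPM with shTXNRD1, 13.8, 13.5 and 13.3 CPM in senescent control cells and 19.1, 17.9 and 16.5 CPM in growing cells. It fell by 0.40 with senescence and by 1.14 with the hairpin (adjusted p = 0.00123 and 1.60e-07). These neighbouring genes with related sequences therefore moved in opposite directions with the hairpin. IFIT5 was lower with senescence (-0.94 ± 0.12, adjusted p = 1.61e-05) and not called with the hairpin (0.23 ± 0.12, 0.143). TRi-1 changed none of the 4 past the threshold, with values of -0.40 to -0.06.

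**Figure D3:**
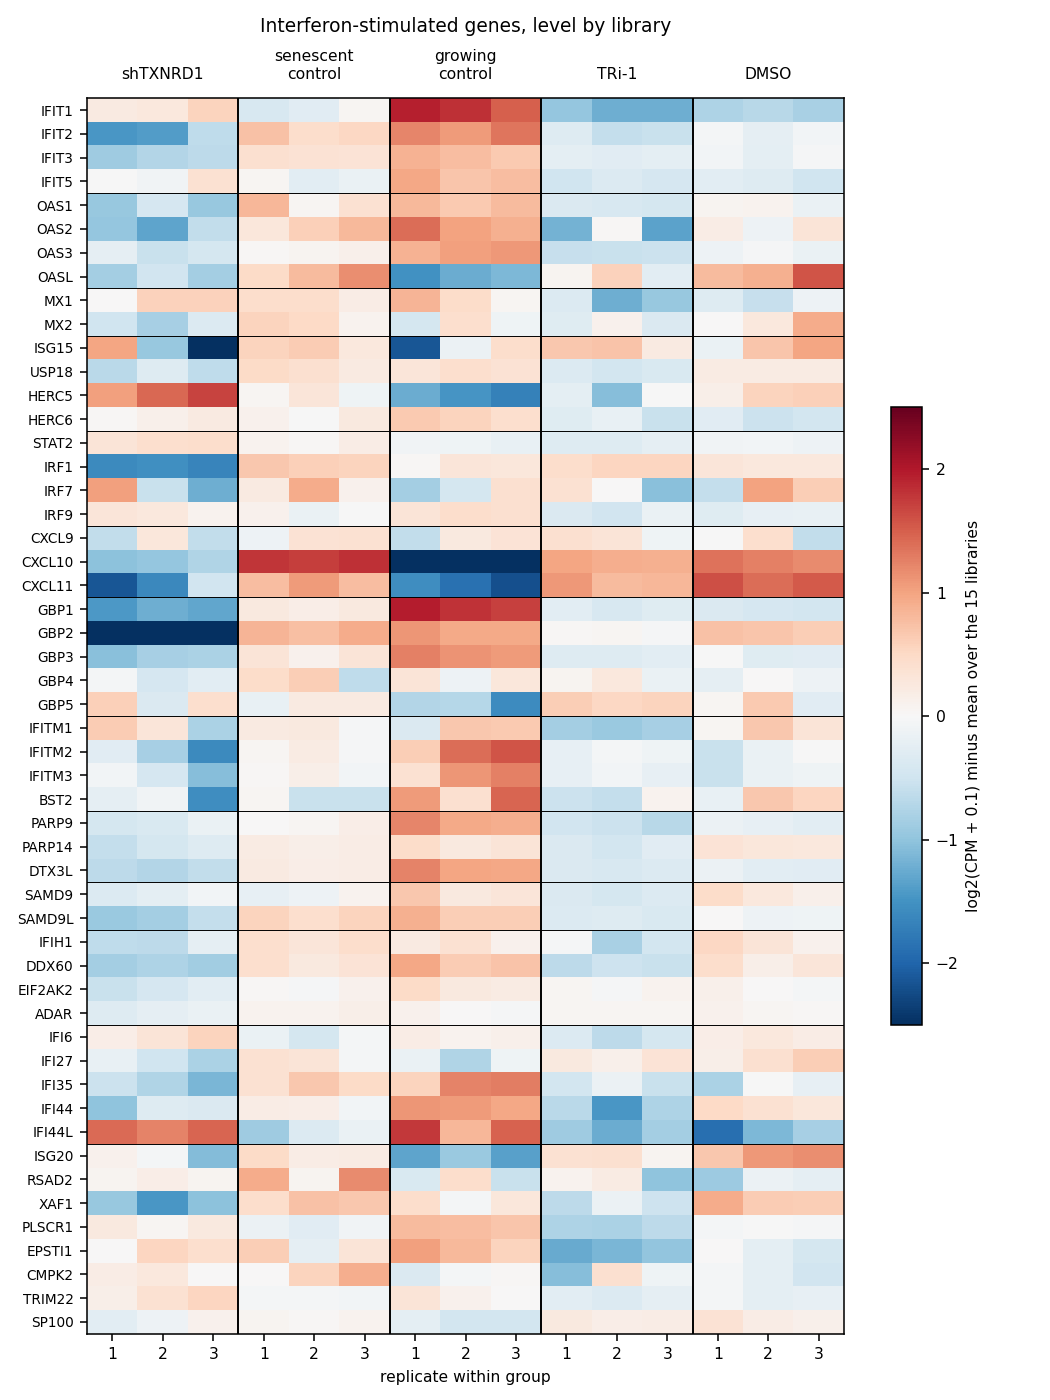
Level of each of the 52 members (rows, by role) in the 15 libraries (columns: shTXNRD1, senescent control, growing, TRi-1 and DMSO, 3 replicates each), as log2(CPM + 0.1) minus the member's mean over the 15 libraries; the colour scale ends at -2.5 and 2.5. GBP2 and IRF1 are dark blue in the hairpin columns, and CXCL10 is dark blue in the growing columns.

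IFI44 and IFI44L lie next to each other in the genome and encode related proteins of antiviral function. IFI44L had 1.4, 1.23 and 1.44 CPM with shTXNRD1, 0.203, 0.346 and 0.400 CPM in senescent control cells and 1.82, 0.904 and 1.46 CPM in growing cells. Hairpin libraries overlapped the growing ones and lay above the senescent control. The changes were -2.15 ± 0.35 with senescence (adjusted p = 0.000124) and 2.10 ± 0.36 with the hairpin (0.000208), the largest rise with the hairpin among the members. IFI44 had 1.35, 2.23 and 2.18 CPM with shTXNRD1, 3.24, 3.16 and 2.70 CPM in senescent control cells and 6.15, 6.04 and 5.64 CPM in growing cells. It was lower with senescence (-0.97 ± 0.19, adjusted p = 0.000576) and with the hairpin (-0.66 ± 0.21, 0.0156). The hairpin call was lost without shTXNRD1 replicate 1 (adjusted p = 0.0540) or senescent control replicate 1 (0.0522). With TRi-1, IFI44 had 1.73, 0.970 and 1.61 CPM, against 4.04, 3.69 and 3.48 CPM with DMSO. That change of -1.38 ± 0.21 (adjusted p = 0.000387) was the largest fall with TRi-1 among the members. IFI44L at 0.204, 0.139 and 0.211 CPM with TRi-1 and 0.0518, 0.158 and 0.217 CPM with DMSO gave no difference that was detectable at this depth.

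Other IFI members were mixed. IFI6, a small membrane protein of mitochondria and the endoplasmic reticulum, had 8.30, 9.28 and 10.9 CPM with shTXNRD1, 6.53, 5.39 and 7.15 CPM in senescent control cells and 8.41, 7.85 and 8.03 CPM in growing cells. It was higher with the hairpin (0.58 ± 0.13, adjusted p = 0.00160), and its senescence change of -0.35 ± 0.13 (0.0290) lost its call without growing replicate 1 (0.0718) or 3 (0.0512) or senescent control replicate 1 (0.0516) or 2 (0.131). IFI6 levels with TRi-1 were 5.80, 4.62 and 5.41 CPM, against 8.24, 8.86 and 8.40 CPM with DMSO (-0.69 ± 0.13, adjusted p = 0.00180). The direction was thus opposite under the 2 inhibitions, with a difference of 1.26 ± 0.18 (adjusted p = 8.03e-05). IFI35, which binds the partner NMI, had 2.55, 2.19 and 1.64 CPM with shTXNRD1 and 4.87, 5.98 and 5.25 CPM in senescent control cells (-1.33 ± 0.24, adjusted p = 0.000384). Its senescence change of -0.56 ± 0.22 (adjusted p = 0.0421) lost its call without growing replicate 2 (0.144) or 3 (0.146), or senescent control replicate 1 (0.134), 2 (0.0540) or 3 (0.0921). IFI27 stayed at 0.198 to 0.688 CPM and was not called.

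The OAS enzymes sense double-stranded RNA and make a second messenger that leads to RNA decay. OAS3 had 7.20, 5.69 and 6.19 CPM with shTXNRD1, 8.52, 8.80 and 9.10 CPM in senescent control cells and 15.3, 17.1 and 17.9 CPM in growing cells. It fell by 0.93 with senescence (adjusted p = 1.24e-06) and by 0.47 with the hairpin (0.00116). With TRi-1 it had 5.60, 5.68 and 5.75 CPM, against 7.62, 8.22 and 7.497 CPM with DMSO, and fell by 0.45 (0.00563). These hairpin and TRi-1 changes differed by -0.02 ± 0.14 (adjusted p = 0.932). OASL, a relative without that enzyme activity, had 0.250, 0.350 and 0.248 CPM with shTXNRD1, 0.770, 0.989 and 1.3 CPM in senescent control cells and 0.119, 0.164 and 0.188 CPM in growing cells. Contrary to OAS3 it was higher with senescence (2.66 ± 0.40, adjusted p = 5.38e-05), and it was lower with the hairpin (-1.81 ± 0.37, 0.000894). TRi-1 lowered OASL by 1.09 ± 0.32 (adjusted p = 0.0259), a call lost without DMSO replicate 3 (0.154) or TRi-1 replicate 1 (0.0833) or 3 (0.115). OAS2 fell by 1.83 with the hairpin (adjusted p = 0.00223). OAS1 had 0 to 6 counts per library.

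The ISG15 system, which conjugates the ubiquitin-like protein ISG15 to other proteins, had its ligase apart from the rest. HERC5, the main ISG15 ligase, had 2.10, 2.8 and 3.37 CPM with shTXNRD1, 1.01, 1.24 and 0.900 CPM in senescent control cells and 0.357, 0.288 and 0.235 CPM in growing cells. The groups rose in steps without overlap, by 1.81 ± 0.34 with senescence (adjusted p = 0.000398) and a further 1.39 ± 0.27 with the hairpin (0.000568). TRi-1 cells had 0.815, 0.416 and 0.972 CPM, against 1.09, 1.48 and 1.52 CPM with DMSO (-0.89 ± 0.29, adjusted p = 0.0458). The TRi-1 call was lost without DMSO replicate 2 (adjusted p = 0.115) or 3 (0.140) or TRi-1 replicate 1 (0.0837) or 2 (0.174). HERC5 differed between the inhibitions by 2.28 ± 0.39 (adjusted p = 0.000409). USP18, which removes ISG15 and dampens the type I receptor, had 3.60, 4.59 and 3.67 CPM with shTXNRD1, against 8.07, 7.66 and 6.80 CPM in senescent control cells. USP18 was lower with the hairpin (-0.92 ± 0.11, adjusted p = 8.43e-06) and with TRi-1 (-0.61 ± 0.11, 0.00135) and not called with senescence (0.01 ± 0.11, 0.932). HERC6 was lower with senescence (-0.44 ± 0.12, adjusted p = 0.00618) and not called under either inhibition.

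ISG15 itself was measured with a wide spread. It had 4.60, 1.14 and 0.248 CPM with shTXNRD1, 3.41, 3.61 and 2.75 CPM in senescent control cells and 0.436, 2.06 and 3.10 CPM in growing cells. Within shTXNRD1 and within growing cells the replicates ranged further than any group means differed, and no comparison was called. The hairpin change of -0.72 ± 0.73 (adjusted p = 0.438) became -2.198 (0.0225) without shTXNRD1 replicate 1. The transcript of ISG15 is 63.4% GC. The correlation across 15433 genes between a library's deviation from its group and transcript GC (Spearman) was 0.64, 0.20 and -0.66 in the shTXNRD1 libraries, 0.02, 0.47 and -0.45 in the senescent control libraries and -0.69, 0.50 and 0.59 in the growing libraries. The low values of ISG15 stood in the libraries with the lowest correlations, and the part of GC content in its spread was not tested. IRF7, at 66.8% GC the highest among the members, had 0.850, 0.219 and 0.0991 CPM with shTXNRD1 and 0.446, 0.791 and 0.400 CPM in senescent control cells.

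**Figure D4:**
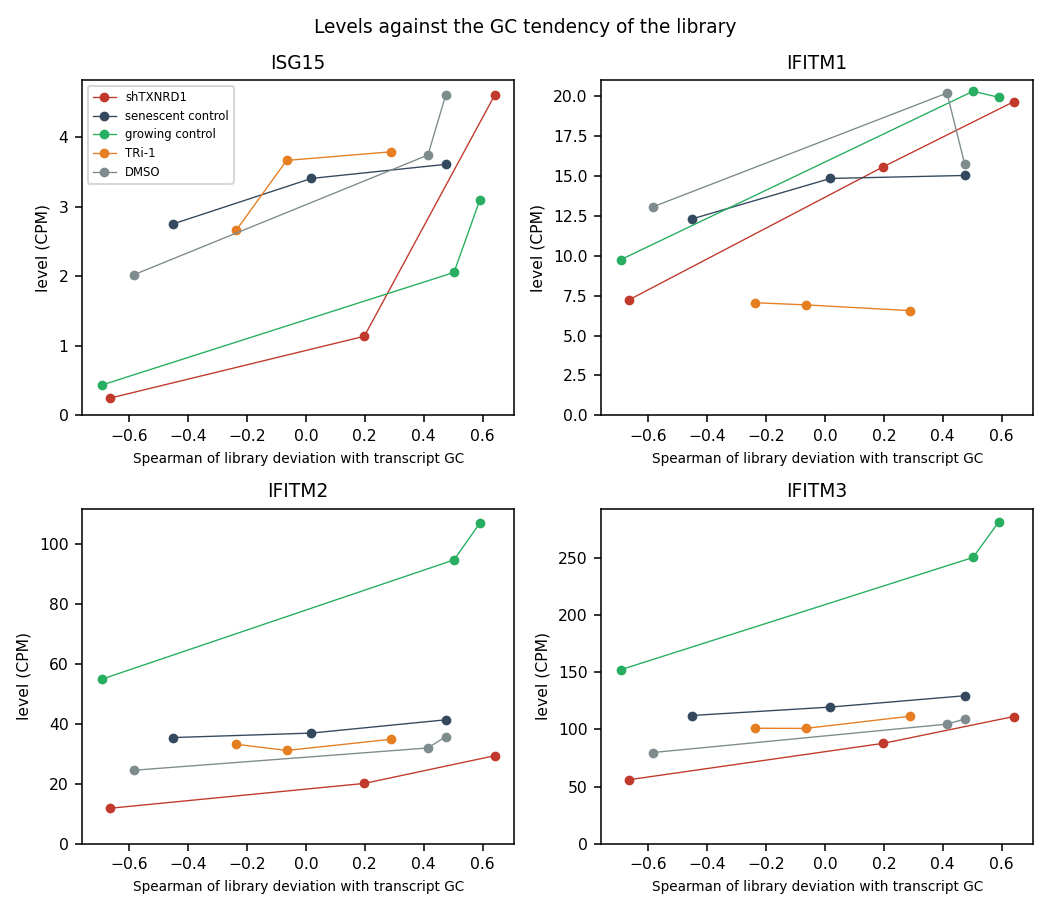
Level (CPM, y axis from 0) of ISG15, IFITM1, IFITM2 and IFITM3 in each library against the Spearman correlation, over 15433 genes, of that library's deviation from its group mean with transcript GC content (x axis); colours are the 5 groups, and lines join libraries of a group. In shTXNRD1 and growing cells the lowest level of each gene stands at the lowest correlation, while IFITM1 with TRi-1 is level at 6.56 to 7.06 CPM.

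The IFITM proteins block viral entry at membranes, and their levels showed the same spread. IFITM3 had 111, 87.8 and 55.9 CPM with shTXNRD1, 119, 129 and 112 CPM in senescent control cells and 152, 250.1 and 281 CPM in growing cells. It was lower with senescence (-0.92 ± 0.24, adjusted p = 0.00605), and the hairpin change of -0.50 ± 0.24 was not called (0.107). IFITM2 had 29.3, 20.1 and 11.8 CPM with shTXNRD1, 36.9, 41.3 and 35.4 CPM in senescent control cells and 54.9, 94.6 and 107 CPM in growing cells. It fell by 1.17 with senescence (adjusted p = 0.00364) and by 0.89 with the hairpin (0.0228). The hairpin call of IFITM2 was lost without shTXNRD1 replicate 2 (adjusted p = 0.0622) or 3 (0.0746) or senescent control replicate 2 (0.0674). IFITM1 had 19.6, 15.6 and 7.24 CPM with shTXNRD1, 14.8, 15.03 and 12.3 CPM in senescent control cells and 9.76, 20.3 and 19.9 CPM in growing cells, with no call. With TRi-1 it had 6.92, 6.56 and 7.06 CPM, against 13.1, 20.2 and 15.8 CPM with DMSO (-1.25 ± 0.34, adjusted p = 0.0222). That call was lost without DMSO replicate 2 (adjusted p = 0.0802) or without TRi-1 replicate 1 (0.0654), 2 (0.0746) or 3 (0.0645). IFITM transcripts are near-identical over long stretches, so reads may have been divided among them in ways that are not given. BST2, or tetherin, which holds virions at the cell surface, had 0 to 15 counts per library.

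PARP9, PARP14 and DTX3L act together in ADP-ribosylation and ubiquitin signalling at sites of interferon and DNA damage responses. All 3 fell with the hairpin, where 24.8% of all genes tested were lower. DTX3L had 22.3, 21.1 and 23.0 CPM with shTXNRD1, 41.0, 39.6 and 40.3 CPM in senescent control cells and 83.7, 69.9 and 68.5 CPM in growing cells. Its groups formed separate steps, with -0.88 ± 0.08 for senescence (adjusted p = 2.03e-07) and -0.86 ± 0.08 for the hairpin (5.61e-07). TRi-1 gave -0.14 ± 0.08 (adjusted p = 0.246). PARP9, which shares a promoter region with DTX3L, fell by 0.96 with senescence (adjusted p = 1.57e-06) and by 0.42 with the hairpin (0.00378). It also fell by 0.36 with TRi-1 (adjusted p = 0.0241), a call lost without DMSO replicate 1 (0.0846) or 2 (0.0595) or TRi-1 replicate 2 (0.0541) or 3 (0.0959). PARP14 had 41.5, 46.1 and 49.95 CPM with shTXNRD1, against 72.4, 69.4 and 71.6 CPM in senescent control cells, and 48.5, 45.7 and 51.5 CPM with TRi-1, against 79.4, 75.7 and 75.2 CPM with DMSO. The changes of PARP14 were -0.63 ± 0.08 with the hairpin (adjusted p = 9.48e-06) and -0.66 ± 0.08 with TRi-1 (3.77e-05), and senescence gave -0.15 ± 0.08 (0.0951).

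Outside the OAS and IFIT families, 4 members were grouped as sensing, binding or editing double-stranded RNA, and all 4 fell with the hairpin. Of all genes tested, 24.8% were lower with it. IFIH1, or MDA5, a cytosolic sensor, had 2.65, 2.63 and 3.57 CPM with shTXNRD1, against 5.68, 5.19 and 5.75 CPM in senescent control cells (-0.91 ± 0.19, adjusted p = 0.00108). With TRi-1 it had 4.12, 2.36 and 3.00 CPM, against 6.01, 5.27 and 4.49 CPM with DMSO (-0.73 ± 0.19, adjusted p = 0.0138), a call lost without DMSO replicate 1 (0.0632) or TRi-1 replicate 2 (0.0651) or 3 (0.0553). DDX60, a helicase of the same pathway, had 6.85, 7.22 and 6.69 CPM with shTXNRD1, against 16.6, 14.6 and 15.6 CPM in senescent control cells, and 7.79, 8.55 and 8.41 CPM with TRi-1, against 16.8, 13.8 and 15.2 CPM with DMSO. No libraries overlapped within either comparison of DDX60, with changes of -1.17 ± 0.11 and -0.89 ± 0.10 (adjusted p = 6.01e-07 and 4.79e-05) and a difference of -0.29 ± 0.15 (0.138). EIF2AK2, the kinase PKR that halts translation, had 86.3, 95.1 and 107 CPM with shTXNRD1, 129.9, 124 and 138 CPM in senescent control cells and 178, 150.8 and 147 CPM in growing cells. Its hairpin change was -0.44 ± 0.09 (adjusted p = 0.000753), and its senescence change of -0.28 ± 0.09 (0.0141) lost its call without growing replicate 1 (0.0615) or senescent control replicate 2 (0.0523). ADAR, which edits adenosine in double-stranded RNA, had 308, 330.7 and 344 CPM with shTXNRD1, against 413, 408 and 426 CPM in senescent control cells (-0.34 ± 0.05, adjusted p = 0.000105). TRi-1 changes of EIF2AK2 and ADAR were 0.01 ± 0.09 and -0.01 ± 0.05 (adjusted p = 0.956 and 0.930).

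Outside the list, genes of RNA sensing were called in both directions with senescence and with the hairpin. Of 8 tested genes of RNA sensing, 5 were higher and 2 lower with senescence, and 2 were higher and 2 lower with the hairpin. With TRi-1, 1 was higher and none was lower. The shares over all genes were 27.4% higher and 29.5% lower with senescence, 25.8% and 24.8% with the hairpin, and 7.64% and 12.2% with TRi-1. The hairpin counts lie near these shares. RIGI, the sister sensor of IFIH1, changed by 0.01 ± 0.09 with the hairpin (adjusted p = 0.919). TLR3, the endosomal sensor, had 0.900, 0.700 and 1.44 CPM with shTXNRD1, 0.243, 0.742 and 0.700 CPM in senescent control cells and 10.6, 9.54 and 9.11 CPM in growing cells. It was 17.7-fold lower in senescent control than in growing cells (-4.14 ± 0.31, adjusted p = 4.75e-08). Its adaptor TICAM1 moved the other way, by 1.18 ± 0.25 with senescence (adjusted p = 0.00133) and -1.16 ± 0.25 with the hairpin (0.00190). The SOCS proteins are feedback inhibitors of JAK kinases, and both tested members were higher with senescence and lower with the hairpin. SOCS3 had 21.1, 18.3 and 18.0 CPM with shTXNRD1, 42.8, 48.3 and 41.3 CPM in senescent control cells and 26.7, 30.9 and 28.8 CPM in growing cells. The changes of SOCS3 were 0.62 ± 0.09 with senescence, -1.204 ± 0.09 with the hairpin and 0.41 ± 0.09 with TRi-1 (adjusted p = 3.35e-05, 8.24e-08 and 0.00440). SOCS1 changed by 1.43 ± 0.25 with senescence and -0.84 ± 0.25 with the hairpin (adjusted p = 0.000249 and 0.0113). After the GC correction, the SOCS3 changes with senescence (0.13, adjusted p = 0.416) and TRi-1 (0.28, 0.112) and the SOCS1 change with the hairpin (-0.14, 0.602) were not called. The phosphatase PTPN1, which acts on JAK2 and TYK2, changed by -0.55 ± 0.04 with senescence and 0.82 ± 0.04 with the hairpin (adjusted p = 9.61e-08 and 3.22e-09). Over 6 tested negative regulators, 2 were higher and 2 lower with senescence, 2 higher and 3 lower with the hairpin, and 2 higher with TRi-1. With TRi-1, 7.64% of all genes tested were higher. Of 4 tested IRF family genes outside the list, IRF2, a repressor at ISRE sites, was higher with the hairpin (0.50 ± 0.08, adjusted p = 9.50e-05) and lower with TRi-1 (-0.38 ± 0.08, 0.00312).

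Among the remaining members, XAF1, a pro-apoptotic partner of XIAP, had 1.1, 0.744 and 1.04 CPM with shTXNRD1, against 3.04, 3.76 and 3.60 CPM in senescent control cells, and 1.37, 1.99 and 1.52 CPM with TRi-1, against 4.30, 3.48 and 3.44 CPM with DMSO. It was lower with both, by 1.85 ± 0.21 and 1.19 ± 0.19 (adjusted p = 4.98e-06 and 0.000659), and its senescence change was not called. SAMD9L, a regulator of growth and translation, had 19.5, 20.8 and 24.9 CPM with shTXNRD1, against 55.4, 49.8 and 55.3 CPM in senescent control cells (-1.30 ± 0.10, adjusted p = 8.42e-08). Its paralog SAMD9 was not called with the hairpin (-0.14 ± 0.12, adjusted p = 0.367) but was lower with TRi-1 (-0.67 ± 0.12, 0.00157), where SAMD9L was not (-0.27 ± 0.10, 0.0601). PLSCR1, a phospholipid scramblase, had 15.05, 13.2 and 14.9 CPM with shTXNRD1, 11.4, 10.4 and 12.0 CPM in senescent control cells and 22.0, 21.7 and 20.4 CPM in growing cells. It fell by 0.92 with senescence, was higher by 0.35 ± 0.08 with the hairpin and fell by 0.71 with TRi-1 (adjusted p = 2.18e-07, 0.00236 and 4.17e-05). TRIM22, a ubiquitin ligase, had 105, 123 and 137 CPM with shTXNRD1, against 92.0, 91.1 and 91.0 CPM in senescent control cells (0.41 ± 0.09, adjusted p = 0.00221). ISG20, an RNA exonuclease, was higher with senescence (1.82 ± 0.36, adjusted p = 0.000582), as was SP100, a nuclear body protein (0.45 ± 0.09, 0.000783).

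Calls of EPSTI1 and MX2 were lost when single libraries were left out. EPSTI1 had 1.27, 1.39 and 1.56 CPM with TRi-1, against 3.21, 2.69 and 2.32 CPM with DMSO (-0.95 ± 0.24, adjusted p = 0.0135), a call lost without DMSO replicate 1 (0.0601) or TRi-1 replicate 1 (0.0545). Its senescence change of -0.54 ± 0.21 (adjusted p = 0.0400) was lost without growing replicate 1 (0.143) or 2 (0.0756) or senescent control replicate 2 (0.172) or 3 (0.0728). MX2, a relative of the antiviral GTPase MX1, had 0.300, 0.219 and 0.347 CPM with shTXNRD1, against 0.730, 0.692 and 0.500 CPM in senescent control cells (-1.15 ± 0.39, adjusted p = 0.0231). The MX2 call was lost without shTXNRD1 replicate 2 (adjusted p = 0.0899) or senescent control replicate 1 (0.0767) or 2 (0.0601). MX1 had 1.00, 1.53 and 1.54 CPM with shTXNRD1, against 1.38, 1.38 and 1.15 CPM in senescent control cells, and was not called in any comparison. CMPK2, a mitochondrial kinase of nucleotides, was also not called, and RSAD2, or viperin, had 1 to 11 counts per library.

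The hairpin and the inhibitor share no library, so their calls can be set against each other. There were 11 members lower with both, 44.0% of the 25 lower with the hairpin and 61.1% of the 18 lower with TRi-1. They were OAS3, OASL, IFI44, IFIH1, USP18, CXCL10, GBP2, XAF1, DDX60, PARP9 and PARP14. Leaving out single libraries cost IFI44 its hairpin call in some runs, and OASL, IFIH1 and PARP9 their TRi-1 calls. Of all 47 tested members 53.2% were lower with the hairpin and 38.3% with TRi-1, so 44.0% stands beside 38.3% and 61.1% beside 53.2% for the list as a whole. Over all genes tested, 868 were lower with both. They were 21.9% of the genes lower with the hairpin, beside 12.2% of all genes lower with TRi-1. They were 44.4% of the genes lower with TRi-1, beside 24.8% of all genes lower with the hairpin. A further 13 members were lower with the hairpin and not called with TRi-1, and in 10 of these the difference between the effects was itself called lower. IFI6, STAT2, HERC5 and PLSCR1 were higher with the hairpin and lower with TRi-1, and the difference was called in all 4. IRF1 was the reverse. SAMD9, IFITM1 and EPSTI1 were lower with TRi-1 alone, and 12 members were called in neither comparison. Tested directly, the hairpin effect minus the TRi-1 effect was higher in 10 members and lower in 13, against 22.1% and 19.5% of all genes. The share of members was 21.3% for higher and 27.7% for lower, close to the background for higher. Calls of the difference were lost when 1 of the 12 senescent libraries was left out in IFI44L, IFITM1, SAMD9 and EPSTI1. IFI44L (1.81 ± 0.67, adjusted p = 0.0432) lost its call in 10 of 12 cases, all but senescent control replicate 3 and DMSO replicate 1, with adjusted p = 0.0537 to 0.276. IFITM1 (1.26 ± 0.47, adjusted p = 0.0495) kept its call only without shTXNRD1 replicate 3, and otherwise had adjusted p = 0.0513 to 0.117. SAMD9 (0.53 ± 0.17, adjusted p = 0.0242) lost it without senescent control replicate 1 or 2, shTXNRD1 replicate 3, DMSO replicate 1 or TRi-1 replicate 2 (0.0513 to 0.0681). EPSTI1 (1.00 ± 0.32, adjusted p = 0.0230) lost it without shTXNRD1 replicate 2, DMSO replicate 1 or TRi-1 replicate 1 (0.0552 to 0.0622). The dose of TRi-1 is not given and of these inhibitions the TXNRD1 transcript fell with the hairpin only, so strength of inhibition and its kind cannot be told apart.

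**Figure D5:**
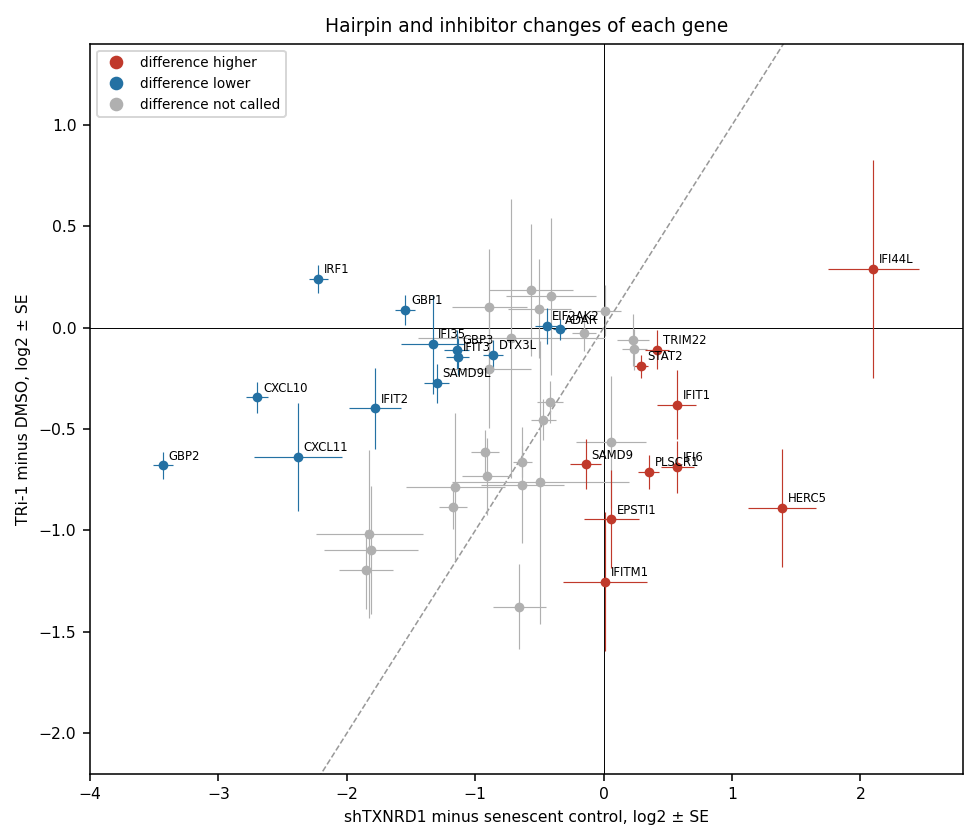
Log2 fold change ± SE with shTXNRD1 against senescent control (x axis) and with TRi-1 against DMSO (y axis) of the 47 tested members; the dashed line marks equal changes, and red and blue mark members whose difference between the effects was called higher or lower. GBP2, CXCL10, CXCL11 and IRF1 lie far left of the line, and HERC5 and IFI44L far right of it.

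DMSO and control senescent cells, both without TXNRD1 inhibition, were not equal. TXNRD1 itself was lower with DMSO (-0.34 ± 0.07, adjusted p = 0.00527), and the interferon gene IFNE was 2.04-fold higher (1.03 ± 0.18, adjusted p = 0.00152). Against senescent control, 1 member was higher and 12 lower with DMSO, where 8.36% of all genes were higher and 7.87% lower, and the median of the members was -0.18. GBP1 had 49.1, 47.2 and 45.9 CPM with DMSO, against 74.6, 71.0 and 74.7 CPM in senescent control cells (-0.63 ± 0.07, adjusted p = 5.42e-05). SAMD9L had 37.5, 34.1 and 34.9 CPM with DMSO, against 55.4, 49.8 and 55.3 CPM in senescent control cells (-0.59 ± 0.09, adjusted p = 0.000738). CXCL10 changed by -0.51 ± 0.08 (adjusted p = 0.000394) and IRF1 by -0.35 ± 0.07 (0.00405). The starting level of the inhibitor comparison was therefore lower than that of the hairpin comparison for these 4 genes. IFI6 was the member called higher (0.42 ± 0.13, adjusted p = 0.0369), a call lost without senescent control replicate 1 (0.0770) or 2 (0.147) or DMSO replicate 1 (0.0689), 2 (0.111) or 3 (0.0853).

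Promoter matches were counted by direction of change, in small numbers and with no test of a difference. Of the 20 members with a promoter entry that were lower with senescence, 17 had an ISRE match and 2 an NF-kB match. Of the 7 that were higher, 3 had an ISRE match and 3 an NF-kB match (CXCL10, CXCL11 and IRF1), and of the 11 not called 7 had an ISRE match and 4 an NF-kB match. With the hairpin, 12 of 18 lower members had an ISRE match and 6 an NF-kB match, and of 6 higher members 5 had an ISRE match and none an NF-kB match. Of 14 members not called with the hairpin, 10 had an ISRE match and 3 an NF-kB match. With TRi-1, 13 of 15 lower members had an ISRE match and 4 an NF-kB match, against 14 and 4 of the 22 not called. GBP2, IFIT2, OASL, OAS2, MX2, USP18, IRF7, GBP5, IFITM2 and TRIM22 had no entry and are not counted.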

How the data were processed

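The authors deposited raw counts as 1 table of 15 libraries, whole numbers by Ensembl identifier and unscaled. Per the labels' protocols, total RNA went into KAPA RNA HyperPrep libraries and 75 bp paired-end runs. The submitters' processing notes list RSEM 1.2.3 and DESeq2 (no version), and hg19 and mm10 with no role stated. Aligner, annotation and strand setting: not given in the sources used here. Symbols were found for 52301 of 57736 identifiers, 51959 of them in a name table; identifiers lacking one held 0.680% of counts. The 5 comparisons used edgeR 4.0.16 (TMM, filterByExpr by group, robust quasi-likelihood F test, two-sided, R 4.3.3) in 1 model of all 15 libraries with 10 residual degrees of freedom. Benjamini-Hochberg adjustment covered 15994 genes, and a call is an adjusted p under 0.05. CPM are TMM-scaled, and folds and SE come from the fit. Samples were grouped by their labels. An exact permutation test of 3 against 3 libraries cannot go below p = 0.1. Members and lists were chosen with earlier results of these data known. Any member or gene of the listed pathways and markers could be named, with values per library for a set panel and the largest changes; IKBKE and PECAM1 were not matched, and 3 genes outside the members are not reported here. Replicates of a group differed by more than sampling noise. The fit was tested on simulated counts. Promoters are RefSeq windows on GRCh38.p14, which may not be the build of the counts. Alternatives were DESeq2 1.42.0, limma-voom (limma 3.58.1), other scaling and filters, a replicate term, the compared groups alone and each library left out. A correction for transcript GC (spline with 6 degrees of freedom) and the removal of 3 low-GC libraries were chosen after seeing the data.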

Additional observations from a re-analysis of the deposited data

How the results depend on the processing

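Some called members kept their call in every alternative run that tested them. They were 25 of 30 under senescence, 29 of 32 under the hairpin, 11 of 19 under TRi-1 and 8 of 13 under DMSO. In the difference between the inhibitions they were 19 of 23. A run whose filter removed a member was not counted for that member. With only genes at a mean CPM of at least 5, senescence had 5 members higher (8 in the full fit) and the hairpin 16 lower (25), where fewer members are tested. For TRi-1, all genes called higher numbered 812 without a filter on low counts, 3266 after the GC correction, 1967 without the 3 low-GC libraries and 2344 with the compared groups alone (1222 as reported), and 3037 were lower with those groups alone (1954). Those called higher numbered 772 to 845 with 1 library left out. Members higher with TRi-1 were 0 without a filter and at a mean CPM of 5, 3 after the GC correction and 0 to 1 with 1 library left out. For DMSO against senescent control, all genes higher were 2684 after the GC correction and 2229 with those groups alone (1337), and lower 2516 and, without the low-GC libraries, 2028 (1258). Members higher were 2 by limma-voom and at a mean CPM of 5, 3 after the GC correction, 4 without the low-GC libraries, 5 with those groups alone and 0 to 2 with 1 library left out (1). The GC correction reversed values not called as fitted: TYK2 (-0.13) and TRIM25 (-0.17) with senescence, and PARP14 (-0.16) in the difference; the cause was not tested. It moved the median of all genes under senescence to -0.11. Same-numbered libraries did not deviate together throughout (30 pairs, correlations of -0.61 to 0.42, 6 of them over 0.1). With 3 libraries a group, these values cannot decide whether the numbers pair the samples. With a replicate block, 8 members were higher and 21 lower with senescence, 7 and 25 with the hairpin, and 1 and 16 with TRi-1. Shares over all genes in these alternative fits are not given here. Their member counts show only how calls depended on the settings. Depth limits the 5 untested members, IRF7 (2 to 17 counts per library) and IFI44L under TRi-1.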
